A study of Homo sapiens with 2 samples.

Results

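The J-domain co-chaperones encoded by the DNAJA, DNAJB and DNAJC genes were examined in HEK293T cells that had recovered from heat shock. The set holds 41 genes, taken by name and without the endoplasmic reticulum (ER) stress genes DNAJB9 and DNAJC3, and all 41 were found among the 57736 genes listed in each library. It comprises 4 class A, 11 class B and 26 class C genes. HEK293T derives from human embryonic kidney and expresses large T antigen of SV40, and the labels give its genotype as wild type. Per the labels, heat shock lasted 20 min at 43 °C and recovery lasted 6 h at 37 °C. The study's text also gives a recovery of 6 h for RNA-Seq, but its heating time is longer and is stated beside a shorter recovery. The poly(A)+ RNA was sequenced with reads of 50 bp, although the molecule field of the labels reads genomic DNA. There was 1 group of 2 libraries, replicate 1 and replicate 2, from separately lysed cells, with 22529828 and 26890199 expected counts. Untreated cells are not analysed here, so every value describes the cells after recovery and no change with heat was measured.

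J-domain proteins bind HSP70 chaperones through a conserved J domain and stimulate their ATPase, which locks the HSP70 onto a client protein. Class A members have a glycine- and phenylalanine-rich stretch and a zinc finger region besides the J domain, class B members have the stretch without the zinc finger, and class C members share only the J domain. Many class A and B members bring unfolded proteins to HSP70, whereas many class C members place an HSP70 at 1 site or task, such as a translocation channel, a clathrin coat or the ribosome. In the heat shock response, HSF1 binds heat shock elements, which are alternating GAA and TTC units, in the promoters of chaperone genes.

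The promoter windows of the members were searched for these units. A list of members taken to be heat-inducible held DNAJA1, DNAJA4, DNAJB1 and DNAJB4. In RefSeq windows of GRCh38.p14 that run from 250 bases before to 50 bases after a transcription start, 37 of the 41 genes had an entry, with 49 windows, and DNAJC1, DNAJC5B, DNAJC22 and DNAJC24 had none. A match to 3 alternating units (GAA, any 2 bases, TTC, any 2 bases and GAA, or its complement) stood in the windows of DNAJA1 and DNAJB6. In all, 172 of 35116 windows (0.490%) held such a match, or 0.608% of genes with a window. A match to 2 units, spelled GAANNTTC or TTCNNGAA, stood in 8 of the 37 members (DNAJA1, DNAJA4, DNAJB1, DNAJB4, DNAJB6, DNAJB7, DNAJC6 and DNAJC15), in 9 of their 49 windows, and in 16.2% of all genes and 13.5% of all windows. The 2 spellings overlap inside the 3-unit match. A window with at least 2 GAANNTTC matches was found for 3 members, DNAJA1, DNAJA4 and DNAJB1, and for 0.494% of all genes (0.393% of windows). All 4 genes of the heat-inducible list therefore held at least 1 match, as did DNAJB6, DNAJB7, DNAJC6 and DNAJC15, which are not on it. DNAJB4 held TTCTAGAA from -98 to -91. A match describes the letters only, and binding was not measured.

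Stretches of 100 bases are shown for DNAJA1 and DNAJB6, which held the 3-unit match, and for DNAJB1 and DNAJA4, which held a pair of 2-unit matches. They are written 5′ to 3′ along the transcribed strand, with the matches in capitals. The DNAJA1 stretch is chr9:33025193-33025292 on the plus strand (-80 to +20), and its match lies from +4 to +16, just inside the transcript. The DNAJB6 stretch is chr7:157336824-157336923 on the plus strand (-180 to -81). The DNAJB1 stretch is chr19:14518398-14518497 on the minus strand (-100 to -1), and the DNAJA4 stretch is chr15:78264452-78264551 on the plus strand (-110 to -11).
DNAJA1: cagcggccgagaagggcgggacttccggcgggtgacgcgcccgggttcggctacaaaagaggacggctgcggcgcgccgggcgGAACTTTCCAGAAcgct
DNAJB6: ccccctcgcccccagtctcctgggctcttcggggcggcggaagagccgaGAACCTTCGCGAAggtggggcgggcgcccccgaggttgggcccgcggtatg
DNAJB1: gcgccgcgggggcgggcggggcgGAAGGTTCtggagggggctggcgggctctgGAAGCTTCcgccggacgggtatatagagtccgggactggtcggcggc
DNAJA4: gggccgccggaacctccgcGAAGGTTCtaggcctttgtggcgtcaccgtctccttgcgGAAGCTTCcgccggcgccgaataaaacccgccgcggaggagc

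The matches of DNAJB1 and DNAJA4 had the same letters in the same order, GAAGGTTC followed by GAAGCTTC. The distance from the start of the former match to the start of the latter was 30 bases in DNAJB1 and 39 bases in DNAJA4. Read in the direction of transcription, that order of letters occurred in 4 of 35116 windows, 2 of which belonged to these members. The letters were read from the windows of DNAJB1 and DNAJA4 before the search, so these 2 hits were fixed in advance. The levels of these genes after recovery were far apart, as given further on.

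Levels are given as TPM (transcripts per 1000000), which are scaled to transcript length and can be compared between genes. Detection, set at 1 TPM or more in each library, was reached by 35 of the 41 members (85.4%), beside 12367 of 19391 protein-coding genes (63.8%). The median of the detected members was 26.1 TPM, that of detected protein-coding genes was 18.6 TPM, and 22 of the 35 lay above the latter. In 26 members the TPM was at least 10 in both libraries. The 41 genes together held 1669 TPM in replicate 1 and 1800 TPM in replicate 2, which is 0.173% ± 0.0092 (SD, n = 2) of all TPM. In RNA from whole cultures, fewer cells with a transcript and less RNA per cell cannot be told apart.

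A few genes carried most of this RNA. The 5 highest held 52.8% ± 2.48 and the 10 highest 71.1% ± 3.25 of the members' summed TPM (SD, n = 2). DNAJC8, a nuclear protein found with splicing factors, was the highest with 308 and 289 TPM in replicates 1 and 2. DNAJB6, which keeps aggregation-prone proteins soluble, followed with 234 and 235 TPM. DNAJC7, which binds both HSP70 and HSP90 through its TPR repeats, had 145 and 150 TPM. DNAJA1, the main class A partner of cytosolic HSP70, had 130 and 159 TPM, a range that overlapped that of DNAJC7. DNAJB1, the classical HSP40, had 94.0 and 86.4 TPM and lay below both in each library.

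The next genes in the order were closer together. DNAJA3, a mitochondrial matrix protein, had 83.6 and 77.6 TPM, below DNAJB1 in both libraries. DNAJC11, of the inner mitochondrial membrane contact sites, had 65.2 and 61.7 TPM, and DNAJC5, the cysteine string protein of secretory vesicles, had 62.6 and 56.5 TPM. The ranges of these last 2 overlapped. DNAJC21, which acts in ribosome assembly, had 42.0 and 74.0 TPM, and DNAJC4 had 61.3 and 49.9 TPM. The ranges of DNAJC5, DNAJC21 and DNAJC4 could not be placed in a firm order. Over the whole order, 13 of 40 neighbouring genes had ranges that did not overlap, and 5 of the 9 such neighbours among the 10 highest.

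**Figure D1:**
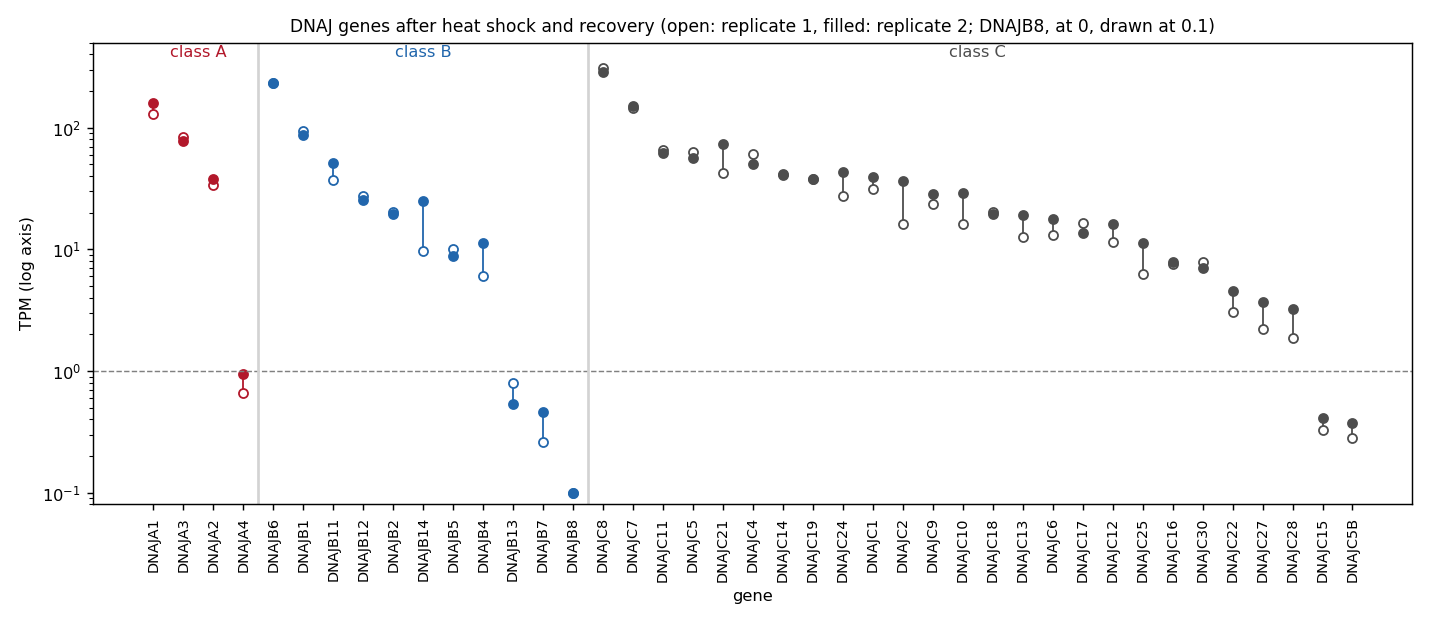
TPM of the 41 DNAJ genes on a log axis, grouped by class and ordered by mean within a class, with open points for replicate 1 and filled points for replicate 2. The dashed line marks 1 TPM; the 6 genes below it are DNAJA4, DNAJB7, DNAJB8 (0 in both libraries, drawn at 0.1), DNAJB13, DNAJC5B and DNAJC15, and each class holds genes from near 100 TPM or above to under 1 TPM.

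The classes differed in their summed level and in their number of genes (26 in class C, 11 in B and 4 in A), while their members overlapped. Class C held 58.9% ± 0.064 of the summed TPM, class B 26.0% ± 0.39 and class A 15.1% ± 0.33 (SD, n = 2), and the order of the sums was the same in each library. The gene medians ran otherwise, with 58.2 TPM in class A, 21.2 TPM in class C and 17.4 TPM in class B. The span of gene means was 0.80 to 144 TPM in class A, 0 to 234 TPM in class B and 0.325 to 299 TPM in class C, so each class reached from undetected genes to some of the highest. Detection was 3 of 4, 8 of 11 and 24 of 26 genes in classes A, B and C. The members of a class are not replicates of it, and no test between classes was made.

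In each class 1 gene lay above all others in both libraries. In class A, DNAJA1 held 55% ± 3.76 of the class, and its level was 4.02 ± 0.24 times that of DNAJA2, a cytosolic paralog with 33.7 and 37.9 TPM (ratio of TPM, SD, n = 2). In class B, DNAJB6 held 51.9% ± 1.83 of the class and stood 2.6 ± 0.16 times above DNAJB1. In class C, DNAJC8 held 29.3% ± 2.88 of the class, at 299 TPM on average beside 148 TPM for DNAJC7.

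**Figure D2:**
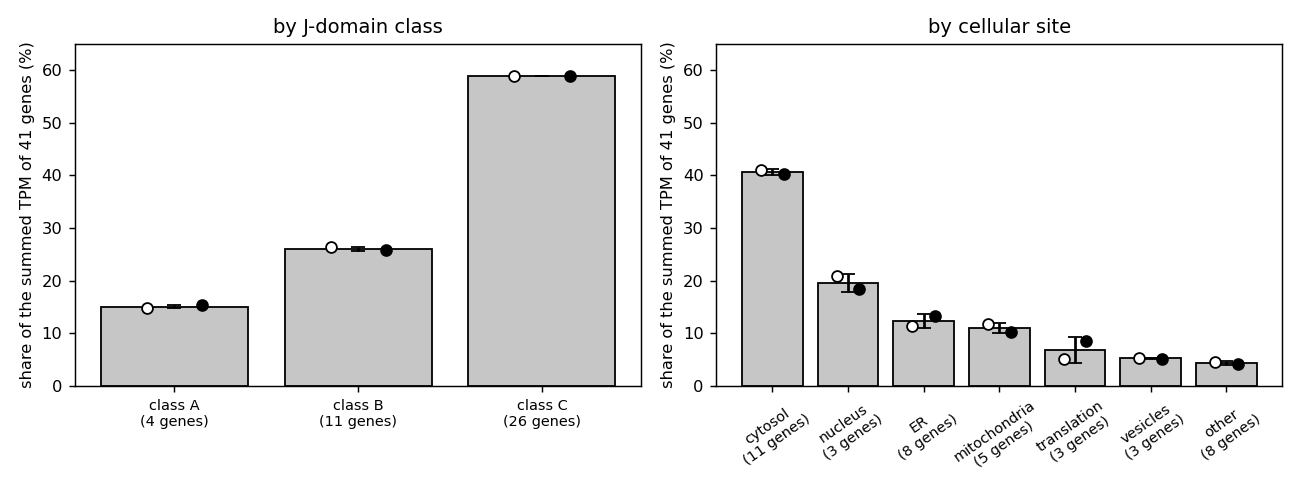
Share of the members' summed TPM, in percent, by J-domain class and by the cellular site of the protein; bars are means of 2 libraries, error bars SDs, and open and filled points replicates 1 and 2. Class C held 58.9%, and cytosolic members held 40.6%, the highest share of a site.

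The 4 members of the heat-inducible list had levels from under 1 TPM to over 100 TPM after 6 h. DNAJA1 had 130 and 159 TPM and DNAJB1 94.0 and 86.4 TPM, as given above. DNAJB4, a cytosolic relative of DNAJB1, had 6.09 and 11.4 TPM. DNAJA4 had 0.66 and 0.94 TPM, from expected counts of 25.6 and 37.0, and so stayed below 1 TPM in both libraries. The credibility bounds given by the quantifier for its posterior mean ran from 0.795 to 1.69 TPM in replicate 1. In replicate 2 they ran from 0.940 to 1.88 TPM. Both spans include the detection level, and the former lies above the deposited 0.66 TPM. Together these genes held 14.1% ± 0.36 of the members' TPM (SD, n = 2). The pairs of GAANNTTC matches printed above were thus present in the windows of a gene at about 90.2 TPM (DNAJB1) and of a gene at 0.80 TPM (DNAJA4).

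The members that act in the cytosol held 40.6% ± 0.57 of the summed TPM, with 9 of 11 genes detected (SD, n = 2, as for the other sites). DNAJB6, DNAJC7, DNAJA1 and DNAJB1 lead this group. Lower cytosolic members were DNAJB2, a ubiquitin-binding chaperone of neurons (20.4 and 19.6 TPM), DNAJC12, a chaperone of aromatic amino acid hydroxylases (11.5 and 16.0 TPM), and DNAJB5 (10.0 and 8.83 TPM). The nuclear members held 19.6% ± 1.73, of which DNAJC8 made up 87.9%. The other nuclear genes were DNAJC9, a chaperone of histone H3, with 23.7 and 28.3 TPM, and DNAJC17, a splicing-associated protein, with 16.6 and 13.7 TPM.

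All 8 members of the ER were detected, and their sum was 12.3% ± 1.31 of the total. DNAJB11, a lumenal partner of the ER HSP70 BiP, had the highest mean of them, with 37.0 and 51.4 TPM. No member dominated the ER group as DNAJC8 did the nuclear group, since DNAJB11 held 20.5% ± 1.49 of it. DNAJC14 had 40.9 and 41.5 TPM and so lay above DNAJB11 in replicate 1, and DNAJC1, a membrane protein that also contacts ribosomes, had 31.6 and 39.2 TPM. DNAJC10, a disulfide reductase that helps remove misfolded proteins, had 16.3 and 28.9 TPM. DNAJB12 and DNAJB14, paralogs that span the ER membrane and act in protein degradation, had 27.5 and 25.2 TPM and 9.65 and 25.2 TPM. The ratio of DNAJB12 to DNAJB14 was therefore 2.85 in replicate 1 and 1.00 in replicate 2. The other ER members were DNAJC18 with 20.2 and 19.5 TPM and DNAJC16 with 7.60 and 7.93 TPM.

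Mitochondrial members held 11% ± 1.01, of which DNAJA3 made up 42.4% ± 0.585. DNAJC19 and DNAJC15 both belong to the motor that imports proteins into the matrix. DNAJC19 had 38.2 and 38.1 TPM, whereas DNAJC15 had 0.33 and 0.41 TPM. The former was 116 times the latter in replicate 1 and 92.9 times in replicate 2. DNAJC30, which interacts with respiratory chain proteins, had 7.91 and 7.01 TPM.

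Members tied to translation held 5.14% of the summed TPM in replicate 1 and 8.53% in replicate 2, and this site had the widest spread of the 7 (6.83% ± 2.39). DNAJC21 led it. DNAJC24, an enzyme of diphthamide synthesis, had 27.7 and 43.4 TPM. DNAJC2, the J-domain protein of the ribosome-associated complex, had 16.2 and 36.1 TPM. Each of the 3 genes was higher in replicate 2. Their GC content was 37.1% to 40.2%. The log2 ratios of counts (replicate 2 over replicate 1) of DNAJC21, DNAJC24 and DNAJC2 were 0.64, 0.65 and 1.16. With the GC trend of all genes taken out, as described further on, they were 0.19, -0.13 and 0.68. Vesicle and endosome members held 5.24% ± 0.082, with DNAJC5 followed by DNAJC13 of endosomes (12.6 and 19.2 TPM) and DNAJC6, the neuronal clathrin-uncoating protein auxilin (13.2 and 17.6 TPM). The GAK gene, which encodes the widely expressed auxilin and is not among the 41, stood at 56.7 and 52.4 TPM, or 4.29 and 2.98 times DNAJC6.

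The other 8 members held 4.33% ± 0.31, of which DNAJC4 made up 74.1% ± 9.29. DNAJC25 (6.23 and 11.3 TPM), DNAJC22 (3.08 and 4.51 TPM), DNAJC27 (2.22 and 3.66 TPM) and DNAJC28 (1.85 and 3.21 TPM) were also detected. The TPM of each was higher in replicate 2, although DNAJC22 had a log2 ratio of -0.05 in counts and did not pass the test described further on.

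Of the 6 genes that missed detection, DNAJB8 had no count in either library, which allows up to 3 counts, or 0.133 and 0.112 CPM (counts scaled to a library total of 1000000) in replicates 1 and 2. DNAJB8, DNAJB7, DNAJB13 and DNAJC5B are best known from testis. DNAJB13, of the sperm flagellum, had 0.79 and 0.53 TPM, DNAJB7 had 0.26 and 0.46 TPM, and DNAJC5B had 0.28 and 0.37 TPM from 3 and 6 expected counts. The limits and the low levels cover counting error only. These 4 genes were all below 1 TPM, as were DNAJA4 and DNAJC15. DNAJC5, the widely expressed relative of DNAJC5B, was at 62.6 and 56.5 TPM.

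The HSP70 genes that these proteins serve were read beside them. A list of 12 HSP70 genes had 8 detected and summed to 2343 ± 15.5 TPM (SD, n = 2), more than the 1735 ± 92.1 TPM of the 41 members. HSPA8, the constitutive cytosolic HSP70, was the highest with 1220 and 1137 TPM. HSPA9, the mitochondrial HSP70, had 559 and 598 TPM, and the heat-inducible HSPA1B had 345 and 376 TPM. HSPA1A was listed at 0.47 and 1.05 TPM, but it and HSPA1B are near-identical copies between which reads can be split, so their levels are read as a sum. All 13 listed nucleotide exchange factors, which release the client from HSP70, were detected, led by GRPEL1 (87 and 81.6 TPM), HYOU1 (85.2 and 80.1 TPM) and HSPA4 (67.8 and 78.2 TPM).

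J-domain and HSP70 transcripts were set against each other by site, and the ratios depend on which genes each site list holds. In the cytosol the members summed to 0.458 ± 0.029 of HSPA8, HSPA1A and HSPA1B together (ratio of TPM, SD, n = 2). In mitochondria they summed to 0.329 ± 0.028 of HSPA9, or to 0.363 ± 0.036 with HSCB, which is outside the 41. In the ER they summed to 1.92 ± 0.198 times HSPA5, the gene of BiP, which had 107 and 116 TPM. With DNAJB9, DNAJC3 and SEC63, which also work with BiP and are outside the 41, the ER ratio was 3.53 ± 0.537. Some of the 8 ER members, such as DNAJB12 and DNAJB14, have J domains that face the cytosol and do not meet BiP. The cytosol sum leaves these out, as it does the vesicle and translation members and GAK. The mitochondrial sum counts DNAJC11 of the inner membrane contact sites. DNAJB11, DNAJC1 and DNAJC10 alone, whose J domains lie in the lumen, summed to 0.791 of HSPA5 in replicate 1 and 1.03 in replicate 2. HSPA14, the HSP70 partner of DNAJC2 at the ribosome, was 3.99 and 2.04 times DNAJC2 in replicates 1 and 2. These are ratios of RNA, and protein was not measured.

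**Figure D3:**
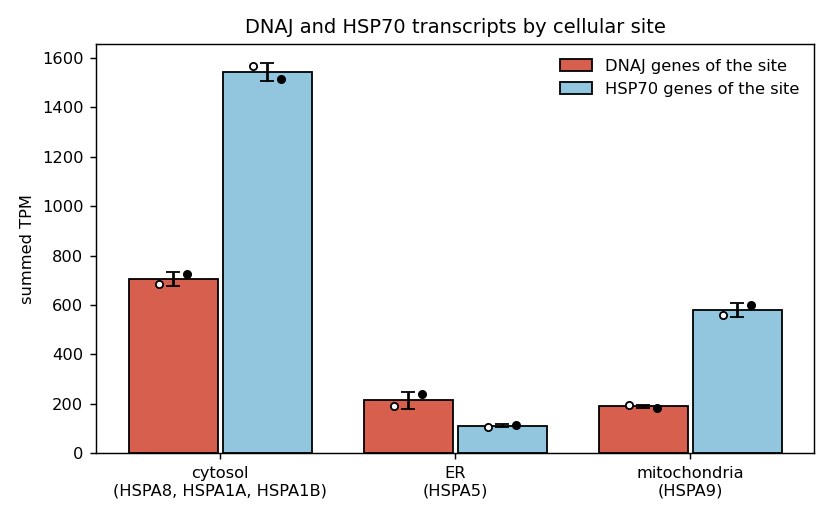
Summed TPM of the DNAJ members of a site (red) and of the HSP70 genes of the same site (blue); bars are means of 2 libraries, error bars SDs, and open and filled points replicates 1 and 2. The members summed to 0.458 of the HSP70 genes in the cytosol, to 1.92 times HSPA5 in the ER and to 0.329 of HSPA9 in mitochondria, and the ER bar includes members whose J domains face the cytosol.

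Of the 6 other J-domain genes listed, all were detected, led by SEC63 of the ER translocation channel (128 and 191 TPM), GAK (56.7 and 52.4 TPM) and HSCB of iron-sulfur cluster assembly (22.2 and 17.4 TPM). The ER stress genes left out by the rule were lower, with 10.2 and 12.7 TPM for DNAJB9 and 9.29 and 12.3 TPM for DNAJC3. SEC63 exceeded every ER member of the 41 in both libraries.

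The library label was read against markers of the line. Of the neuronal genes that HEK293T is known to express, 3 of 4 matched were detected, among them UCHL1 (397 and 367 TPM) and NEFM (45.1 and 56.5 TPM), and so were 3 of 4 matched renal developmental genes, PAX2 (7.83 and 6.86 TPM) and WT1 (9.03 and 8.73 TPM) among them. NEFH and PAX8 were under 1 TPM. Of 7 matched markers of other cells, PTPRC, CD3E and UMOD were at 0 and 2 were detected, COL1A1 (24.1 and 20.9 TPM) and COL3A1.

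How far the libraries differed was tested per gene with an exact two-sided binomial test on rounded expected counts, scaled by edgeR TMM factors, with Benjamini-Hochberg adjustment over the 19714 genes whose counts summed to 10 or more. It compares these 2 libraries and not conditions. Of the 39 members tested, 24 passed an adjusted p of 0.05, beside 42.2% of all genes tested. Of these, 13 were higher in replicate 2, where the share of all genes was 22.1%, and 11 were higher in replicate 1, where it was 20.1%. DNAJB8 and DNAJC5B had too few counts. With the minimum raised to a summed count of 100, 24 of 35 members passed, beside 57% of 13840 genes. Most differences were small, since 37 of the 39 lay within 2-fold. On TMM-scaled counts with a pseudocount of 0.5, log2 ratios (replicate 2 over replicate 1) had a median of 0.03 in the members and 0.02 over all genes tested. By class, 2 of 4 tested genes passed in class A, 7 of 10 in class B and 15 of 25 in class C.

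Only 3 members passed with an absolute log2 ratio of at least 0.8, which 8.14% of all genes tested did, and all 3 were higher in replicate 2. DNAJB14 had 237 and 923 expected counts, with a log2 ratio of 1.68 and an adjusted p of 1.24e-67 in the exact binomial test. DNAJC2 had 483 and 1317 expected counts, with a log2 ratio of 1.16 and an adjusted p of 6.65e-56 in that exact test. DNAJC10 had 1243 and 2639 expected counts, with a log2 ratio of 0.80 and an adjusted p of 1.44e-60 in the same exact test. These counts were more than doubled in replicate 2 for each gene, in libraries whose totals differed far less. Among the 10 genes of highest mean TPM, DNAJC4 had the lowest log2 ratio, -0.33, with 744 and 720 expected counts. Outside them, DNAJC17 (-0.39, adjusted p = 0.006 in the exact test) and DNAJB13 (-0.50, not past the threshold) were lower.

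The GC content of the transcripts moved with these differences. Over the 35 members whose counts summed to 100 or more, the log2 ratio fell with GC content (Pearson's r = -0.77, Spearman's rho = -0.88), and r was -0.64 over 13544 genes. These are correlations across genes that share the same 2 libraries, and genes are not independent replicates. Of the 20 members tested with a GC content under 45%, 13 were called higher in replicate 2 and 1, DNAJC8, higher in replicate 1. Their median log2 ratio was 0.55, against 0.38 in all such genes. Of the 19 members tested at 45% GC or more, 10 were called, each of them higher in replicate 1. The 19 had a median log2 ratio of -0.17, against -0.11 in all such genes. The share of all genes called was not computed by GC content, so these counts are not a result about the members. DNAJB14 had the lowest GC content of all members, 34.8%, and DNAJC4 the highest, 61.2%.

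When the GC trend of all genes was taken out, 11 of the 39 members passed, beside 26.8% of all genes tested. The log2 ratio of DNAJB14 was then 0.74 and that of DNAJC2 0.68, and both still passed, whereas that of DNAJC10 was 0.03 with an adjusted p of 0.713 in the exact test. DNAJC13, DNAJC21 and DNAJC25 also stayed higher in replicate 2. The 6 members called higher in replicate 1 were then DNAJA1, DNAJA2, DNAJB11, DNAJC8, DNAJC9 and DNAJC19, with log2 ratios from -0.10 to -0.61. DNAJA1 and DNAJB11 had been called higher in replicate 2 before, with log2 ratios of 0.12 and 0.20. An exact test in edgeR, with the biological coefficient of variation set at 0.1, called 6 members, all higher in replicate 2 (DNAJB4, DNAJB14, DNAJC2, DNAJC10, DNAJC21 and DNAJC25), beside 7.69% of all genes.

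**Figure D4:**
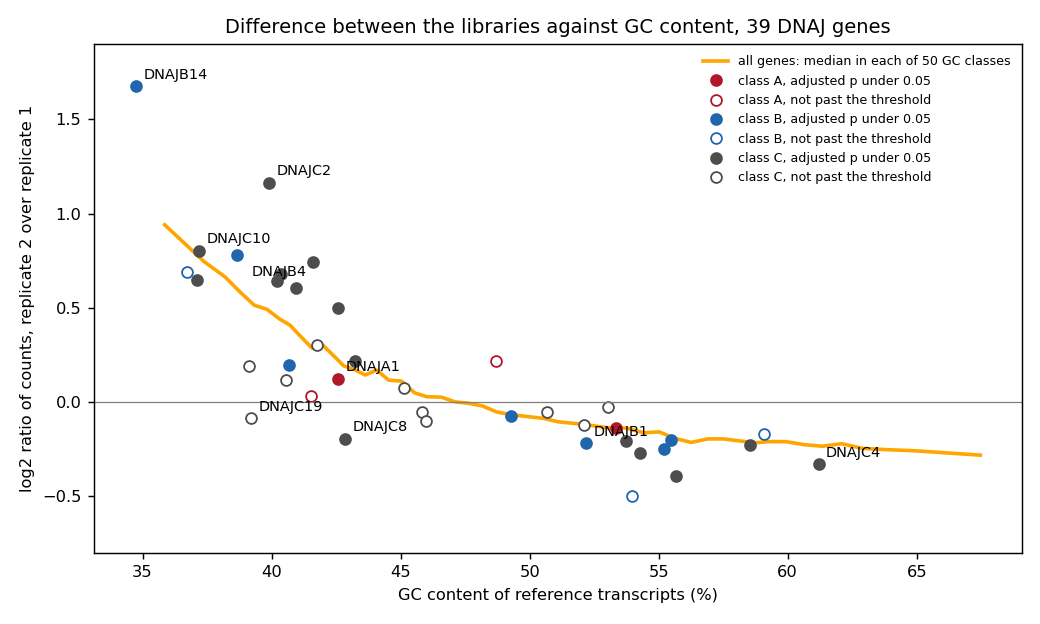
Log2 ratio of counts, replicate 2 over replicate 1, against the GC content in percent of the reference transcripts for the 39 members tested; filled points passed an adjusted p of 0.05 in the exact binomial test and the line joins medians of all genes in 50 GC classes. The members run from DNAJB14 at 34.8% GC and 1.68 to DNAJC4 at 61.2% GC and -0.33.

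The partner lists had differences of the same kind. In the exact binomial test, 4 of 11 HSP70 genes tested, 12 of 13 exchange factors and 5 of 6 other J-domain genes passed. Over all genes the share was 42.2%, and it was 57% among those whose counts summed to 100 or more. Every listed exchange factor reached that depth. HSPA4L, an exchange factor of the HSP110 type, had a log2 ratio of 0.95 (adjusted p = 3.3e-87 in the exact test), and 0.39 with the trend taken out. HSPA1A had 1.01 on 15.5 and 39.6 expected counts, subject to its near-identical copy HSPA1B. The posterior SD given by the quantifier was 85.8% of the HSPA1A count in replicate 1 and 43.3% in replicate 2. The adjusted p of HSPA1A was 0.0372 in the exact test, which takes no account of that SD. HSPA1A and HSPA1B are both among the 4 that passed.

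The transcript forms assigned to a gene also varied. For 6 members the abundance-weighted transcript length differed by over 10% between the libraries. It was 1394 bases in replicate 1 and 1816 bases in replicate 2 for DNAJB14, for which the log2 ratio was 1.68 in counts and 1.38 in TPM. For DNAJC22 it was 2610 and 1854 bases, and the log2 ratio was -0.05 in counts and 0.55 in TPM. For DNAJB11 it was 1096 and 973 bases, and the log2 ratio was 0.20 in counts and 0.47 in TPM. The levels of these genes per length thus depended on the transcript forms assigned to them.

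The assignment of reads to most members left little spread. The posterior SD given by the quantifier was under 1% of the count in both libraries for 30 members and over 5% for 3. These 3 were DNAJC25 (18.5% and 18.8%), which shares sequence with its readthrough gene DNAJC25-GNG10, DNAJB13 (8.32% and 14.2%) and DNAJB7 (14.9% and 7.68%). More than 10% of the 50-base sequences of a gene's transcripts occurred in another gene for 10 members, and 6 members shared none. The highest share was 58.0% in DNAJC9, mostly with FAM149B1 on the opposite strand, followed by 53.8% in DNAJC14, where ENSG00000257390 on the same strand accounted for 21.8% and ORMDL2 on the opposite strand for 20.6%. In DNAJC2 it was 19.5%, mostly with PMPCB on the opposite strand. The sources used here do not say whether counting used strand, so the 8 members with over 10% in common with 1 gene on the opposite strand (DNAJC8, DNAJC11, DNAJC9, DNAJC14, DNAJC2, DNAJC17, DNAJB13 and DNAJB7) are uncertain in that respect. The 32 DNAJ pseudogenes held 22.7 and 50.2 expected counts in all, and 0 reached detection.

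In GRCh37, the build named in the methods, DNAJC8 (ENSG00000126698) lies at chr1:28525967-28559540 on the minus strand and DNAJB6 (ENSG00000105993) at chr7:157128075-157210133 on the plus strand. DNAJA1 (ENSG00000086061) lies at chr9:33025271-33039905 and DNAJA4 (ENSG00000140403) at chr15:78556428-78574538, both on the plus strand. DNAJB1 (ENSG00000132002) lies at chr19:14625581-14671203, DNAJB14 (ENSG00000164031) at chr4:100817405-100867775 and DNAJC2 (ENSG00000105821) at chr7:102952736-102985277, all on the minus strand. DNAJC10 (ENSG00000077232) lies at chr2:183580982-183659191 on the plus strand. These are whole protein-coding genes, and the values above are summed over their transcripts.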

How the data were processed

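RNA-Seq was analysed from 2 libraries of 1 labelled group. Per the labels' processing notes, the authors used Trimmomatic 0.36, STAR 2.6.1c and RSEM 1.3.1 with hg19 (GRCh37.p13); the methods name featureCounts instead. Each deposited table gives an expected count per gene, for which reads that map to several genes were divided among them, so near-identical genes can exchange reads. TPM, as deposited, corrects for transcript length and gives each library 1 common total. The deposited FPKM values correct for effective length and library size. A further table of the whole series was not used here.

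Gene names, positions and GC content came from GENCODE release 44 lifted to GRCh37. Class and site lists and the other lists were set from gene names and textbook knowledge, and the members and lists were chosen with earlier results of these data known. Means and SDs are over 2 libraries. Whether the separately lysed cells were separate cultures is not stated, and the p-values set the difference between these 2 libraries, which may be technical, against counting error only. Expected counts were rounded for the exact binomial test (scipy 1.17.1), with TMM factors from edgeR 4.0.16 and, as an alternative, DESeq2 1.42.0 size factors. The procedure was tested only on counts simulated from the same binomial model. Those counts held no GC trend and no variation beyond counting error. The GC trend was the median log2 ratio in 50 GC classes of genes with 100 or more summed counts, interpolated linearly.

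All 41 members are named. Values in each library were due for the 10 of highest mean TPM, the heat-inducible list, members passing with an absolute log2 ratio of at least 0.8, the highest of each site and members under 1 TPM, and for the 3 highest partners of each list and those with a ratio of at least 0.8; others are additions, and 2 listed genes that are not members are not reported here by name. The DNAJB6, DNAJB1 and DNAJA4 stretches, the search for the DNAJB1 letter order and the ER ratio over 3 lumenal members were chosen after the values were seen. Protein sequences were not analysed here. The first 30 transcribed bases of 47 of the 49 windows were found in a reference transcript of the gene.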

Additional observations from a re-analysis of the deposited data

How the results depend on the processing

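With 1 group of 2 libraries, no change with heat shock can be tested. No paired analysis was possible because the labels give 1 group only. Depth limits the genes under 1 TPM, which rest on 37 expected counts or fewer per library. The number detected was 40 at a TPM of at least 0.1, 32 at a TPM of at least 5, 35 by FPKM and 36 by CPM.

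As shares of expected counts, which are not scaled to length, the members held 0.208% of all, and class A held 17.0%, class B 21.7%, class C 61.3% and the heat-inducible list 13.6% of the members' sum. With 1 library left out at a time, detection stayed at 35, the members' share of all TPM was 0.167% to 0.180%, and class A held 14.8% to 15.3%, class B 25.8% to 26.3%, class C 58.8% to 58.9% and the heat-inducible list 13.8% to 14.3%. The ratio of ER members to HSPA5 fell from 1.92 for all 8 to 0.910 for DNAJB11, DNAJC1 and DNAJC10 only. Of the 10 highest genes, 9 to 10 were among the 10 highest in a single library, DNAJB11 taking the place of DNAJC4 in replicate 2, and 9 by CPM.

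The number of members past the threshold between libraries was 21 to 25 with library totals, DESeq2 size factors, other count minimums or a pseudocount of 5. In those settings 25% to 57% of all genes tested passed. The number of members was 11 with the GC trend removed, beside 26.8% of all genes, and 8 of them were shared with the 24. It was 6 with an edgeR exact test at an assumed coefficient of variation of 0.1, beside 7.69% of all genes. With the GC trend removed, the log2 ratios of DNAJA1 (-0.10, adjusted p = 0.0129) and DNAJB11 (-0.21, adjusted p = 0.0128) reversed, while DNAJB14 and DNAJC2 stayed past the threshold in the exact binomial test. The median log2 ratio of the members was -0.03 to 0.06 over all of these settings.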
